A study of Canis lupus familiaris with 8 samples.

Results

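The genes described here are 10 transcription factors that set up and maintain the T cell lineage, TCF7, LEF1, BCL11B, GATA3, SATB1, ETS1, TOX, RORA, IKZF1 and IKZF3, read by their symbols from the count tables of peripheral blood mononuclear cells. They were chosen by name for their role in T cells, with earlier results of these data known, so their counts beside those of all genes are a description. All 10 of the 10 were among the 35048 genes listed in each table, each in a single row, and all 10 were among the 20632 genes that passed the filter on low counts. The study sequenced 1 library from each of 8 dogs, 5 of them obese and 3 normal, and asked which genes differ between these groups. Obese dog 1 was of the breed Dachshunds, obese dog 2 was a Chihuahua, obese dogs 3 and 4 were Labrador retrievers, and obese dog 5 was a Welsh Corgi, whereas every normal dog was a Beagle, so obesity and breed cannot be told apart in any value below. Age, sex, diet and treatment are not given in the labels used here.

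A precursor that enters the thymus becomes a T cell in steps that these proteins direct. Notch signalling switches on TCF7 and then GATA3, and BCL11B afterwards closes off the other blood cell fates. LEF1 acts beside TCF7, SATB1 folds the chromatin of T cell genes, TOX is needed for the CD4 branch, and ETS1, IKZF1 and IKZF3 act in lymphocytes more widely, B cells included. In blood, TCF7 and LEF1 are known for high levels in naive and central memory T cells, and GATA3 and RORA for their use in helper subsets and innate lymphoid cells.

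Levels are given as CPM (the count of a gene relative to the scaled size of its library), with SD over dogs. The libraries held 10264202 to 14910982 counts. They were made from the poly(A) end of each transcript, so a count does not grow with transcript length and levels of different genes can be set beside each other without dividing by length, as far as the 3′ end of each gene was annotated. The members had 273 to 23238 counts per library. The lowest value, IKZF3 in obese dog 3, was 31.0 CPM with a 95% Poisson interval of 27.4 to 34.9 CPM (counting error only), which is narrow beside the differences between dogs.

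All 10 factors had a higher mean in the obese than in normal dogs, from 1.43 times for IKZF3 to 4.49 times for BCL11B, and none passed an adjusted p of 0.05 in edgeR's quasi-likelihood test over all genes. Among all genes tested 55.3% had a positive fold change and 0.0485% passed as higher. At an unadjusted p under 0.05, 6 of the 10 were higher (BCL11B, IKZF1, GATA3, SATB1, TCF7 and LEF1), against 9.01% of all genes. The median log2 fold change of the 10 was 0.93, and that of all genes tested was 0.09. In BCL11B and GATA3 every obese dog lay above every normal dog, which makes 2 of 10, against 5.75% of all genes tested. Blood mononuclear cells are a mixture, and in bulk RNA a larger number of T cells and more RNA of a gene per T cell cannot be told apart.

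**Figure D1:**
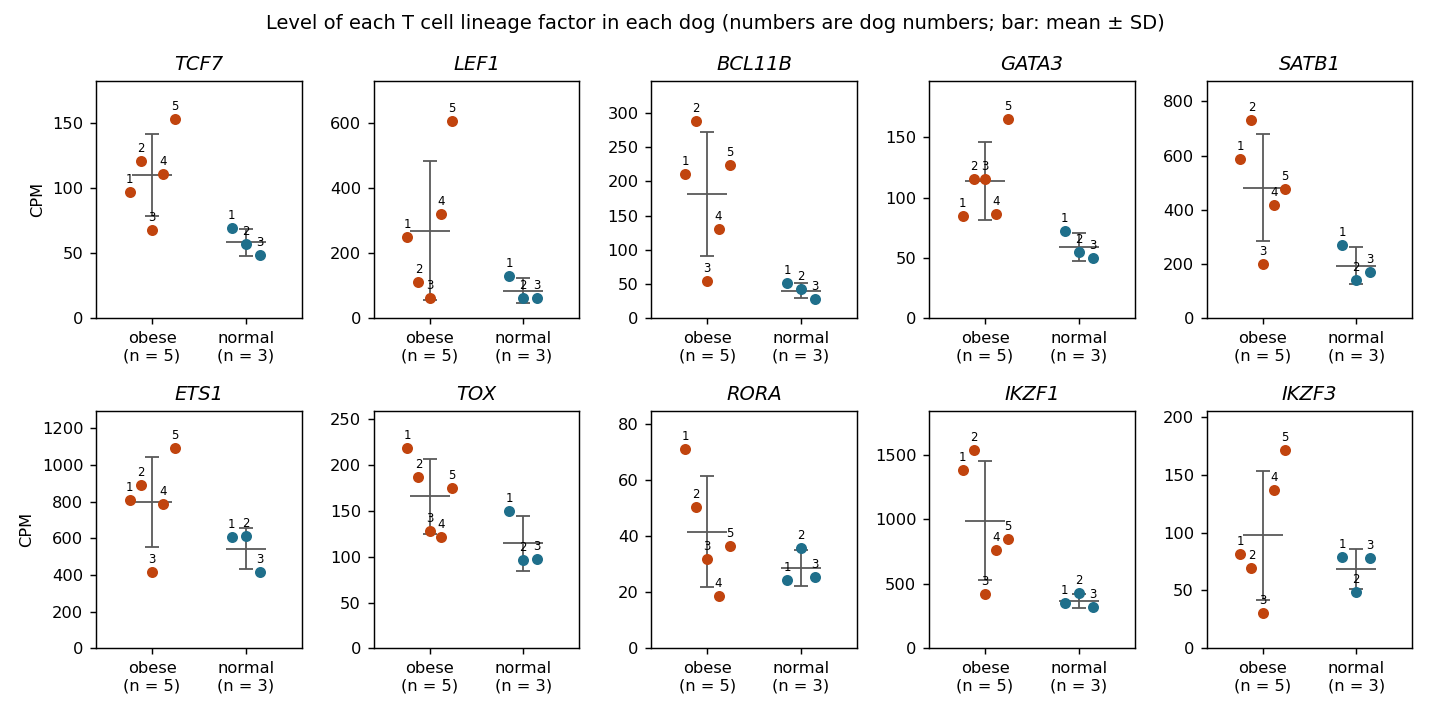
CPM of each of the 10 factors (vertical axis, linear from 0, a scale of its own for each gene) in the 5 obese and 3 normal dogs, with each dog as a numbered point and the mean ± SD as bars. Obese dog 3 lies at or near the level of the normal dogs for most genes, and only in BCL11B and GATA3 do all obese dogs lie above all normal dogs.

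TCF7 and LEF1 encode HMG-box proteins that bind the same DNA motif and can both recruit β-catenin. TCF7 had 97.3, 121, 67.5, 111 and 153 CPM in obese dogs 1 to 5 and 69.0, 57.3 and 48.6 CPM in normal dogs 1 to 3. Obese dog 3 lay just below normal dog 1, and the other obese dogs were all above the normal range. The mean was 110 ± 31.5 CPM in the obese (SD, n = 5) and 58.3 ± 10.3 CPM in normal dogs (SD, n = 3), and the fitted log2 fold change, obese minus normal, was 0.92 (SE, the standard error, 0.289, adjusted p = 0.193, edgeR).

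LEF1 was the most variable of the 10. It had 250, 110, 62.3, 319 and 605 CPM in obese dogs, against 129, 61.6 and 61.6 CPM in normal dogs. Obese dogs 1, 4 and 5 were above all normal dogs, while obese dogs 2 and 3 lay inside the normal range. Its highest obese value was 9.71 times its lowest, and its log2 fold change of 1.68 had the largest standard error of the 10, 0.683 (adjusted p = 0.284, edgeR). An uncharacterised protein-coding gene overlaps LEF1 in the reference annotation and took 12198 counts over the 8 libraries, beside 23852 for LEF1. Its log2 fold change was 0.53 (SE 0.244). A long noncoding RNA also overlaps LEF1, with 2203 counts and a log2 fold change of 1.52 (SE 0.485). The strand setting of the counting is not stated in the labels, so reads of the overlapping genes cannot be told apart.

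BCL11B, the zinc finger factor that fixes T cell identity, showed the largest difference. The obese dogs had 210, 288, 53.6, 131 and 223 CPM, and the normal dogs had 50.8, 42.2 and 28.2 CPM. The groups did not overlap, but obese dog 3 exceeded normal dog 1 only narrowly. The log2 fold change was 2.17 (SE 0.501, adjusted p = 0.106, edgeR), which placed BCL11B at rank 264 of the 20632 genes by p. No other gene of the reference annotation overlapped BCL11B, TCF7 or ETS1, whereas GATA3, TOX, IKZF1 and IKZF3 each overlapped at least 1. The genes overlapping these 4, where counted, had at most 1086 counts each over the 8 libraries.

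GATA3, a factor of CD4 T cells and of type 2 helper cells, was the other gene without overlap. It had 85.0, 116, 116, 86.5 and 165 CPM in obese dogs, against 72.3, 55.2 and 49.6 CPM in normal dogs. Obese dog 3 was here on a par with obese dog 2, above obese dogs 1 and 4. GATA3 also had the second narrowest spread in the obese group after TOX, with a coefficient of variation of 28.6%. The log2 fold change was 0.94 (SE 0.283, adjusted p = 0.176, edgeR).

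SATB1, a nuclear protein that organises chromatin loops, had 588, 731, 199, 417 and 475 CPM in obese dogs, against 270, 142 and 170.5 CPM in normal dogs. Again obese dog 3 was inside the normal range and the other obese dogs were above it (log2 fold change 1.31, SE 0.413, adjusted p = 0.192, edgeR). A long noncoding RNA that overlaps SATB1 had 12996 counts over the 8 libraries, beside 41398 for SATB1, and a log2 fold change of 1.59 (SE 0.514, adjusted p = 0.202, edgeR).

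IKZF1, which encodes Ikaros, was the most abundant of the 10 in obese dogs, with 1379, 1536, 422, 765 and 850.3 CPM. The normal dogs had 349, 432.5 and 324 CPM. Obese dogs 1 and 2 stood highest, and obese dog 3 lay just below normal dog 2. The log2 fold change was 1.43 (SE 0.413, adjusted p = 0.165, edgeR). IKZF3, which encodes Aiolos and is also used by B cells, followed another order: 81.6, 69.3, 31.0, 136 and 171 CPM in obese dogs against 78.6, 48.8 and 77.9 CPM in normal dogs. Obese dogs 4 and 5 stood highest here, and obese dog 3 was the lowest of all 8 dogs. The log2 fold change of IKZF3 was 0.52 with a standard error of 0.474, the largest adjusted p of the 10 (0.631, edgeR).

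The remaining factors had small fold changes with overlapping groups. ETS1, the founding member of the ETS family, had 809, 891, 417, 789 and 1091 CPM in obese dogs, against 605, 612 and 416 CPM in normal dogs. TOX, an HMG-box protein of CD4 lineage choice and of exhausted T cells, had 218, 187, 128, 121.5 and 175 CPM against 149.6, 96.4 and 98.0 CPM. RORA, a nuclear receptor of helper and innate lymphoid cells, was the least abundant of the 10, with 70.9, 50.4, 31.8, 18.7 and 36.4 CPM against 24.3, 35.9 and 25.6 CPM. In ETS1 only obese dog 3 fell short of the normal maximum, whereas in RORA the lowest of all 8 dogs was obese dog 4. Their log2 fold changes were 0.55 for ETS1 (SE 0.323), 0.53 for TOX (SE 0.278) and 0.54 for RORA (SE 0.399), with adjusted p-values of 0.436, 0.386 and 0.542 (edgeR).

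Obese dog 3 was the library on which these tests turned most. It had the lowest obese value in 7 of the 10 factors, all except GATA3, TOX and RORA, and exceeded the highest normal dog in only 2, while obese dogs 1 and 5 did so in all 10 and obese dogs 2 and 4 in 8 each. Without it, 4 of the 10 passed in the same edgeR test, where 3.25% of all genes passed as higher: BCL11B (log2 fold change 2.37, adjusted p = 0.00379), IKZF1 (1.59, adjusted p = 0.016), SATB1 (1.48, adjusted p = 0.0192) and TCF7 (1.02, adjusted p = 0.0296). GATA3 and LEF1 had adjusted p-values of 0.0761 and 0.0583 there (edgeR). Without that dog the groups did not overlap in 6 of the 10 (TCF7, BCL11B, GATA3, SATB1, ETS1 and IKZF1), against 13.1% of all genes. Leaving out any other single dog gave 0 members past the threshold in edgeR.

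The number of calls also depended on the tool. DESeq2 called BCL11B, SATB1 and IKZF1 higher, 3 of 10, where it called 3.17% of the genes to which it gave an adjusted p. In limma-voom with quality weights, 7 of 10 were higher, against 9.15% of all genes, with TOX, RORA and IKZF3 short of the threshold. These weights were lowest for obese dog 3 (0.279) and highest for normal dog 3 (3.54), beside 0.99 and 0.81 for normal dogs 1 and 2. Normal dog 3 had the lowest value of the 8 dogs in 6 of the 10 factors. BCL11B had the smallest adjusted p of the members in both, 0.00129 with DESeq2 and 0.00208 with limma-voom.

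**Figure D2:**
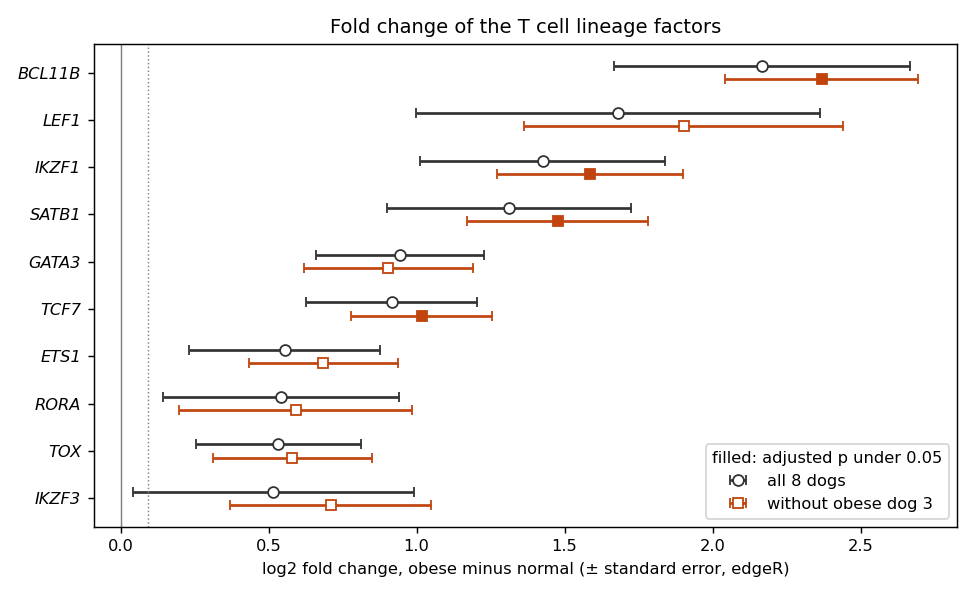
Log2 fold change of each factor, obese minus normal, ± standard error (edgeR), with all 8 dogs (circles) and without obese dog 3 (squares); filled symbols have an adjusted p under 0.05, and the dotted line marks the median of all genes with all 8 dogs, 0.09. No circle is filled, and the squares of BCL11B, IKZF1, SATB1 and TCF7 are.

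The factors differed in their place relative to each other. In the obese dogs IKZF1 had the highest mean, 990.4 ± 459 CPM, followed by ETS1 with 799 ± 245 and SATB1 with 482 ± 198 CPM. In the normal dogs ETS1 came first with 544 ± 111 CPM, then IKZF1 with 369 ± 56.7 and SATB1 with 194 ± 67.0 CPM. ETS1 was above IKZF1 in 3 of 3 normal dogs, and IKZF1 was above ETS1 in 3 of 5 obese dogs, so the obese order of these neighbours did not hold in every dog. BCL11B ranked 9 of 10 in each normal dog and between 4 and 8 in obese dogs. RORA ranked last in each dog but obese dog 3, where IKZF3 did. The neighbours GATA3 and TCF7, with means of 114 and 110 CPM in obese and 59.1 and 58.3 CPM in normal dogs, were not ordered: GATA3 was the higher in 2 of 5 obese and 2 of 3 normal dogs.

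Genes of the T cell receptor complex had higher means in the obese dogs as well. The 8 T cell markers (the CD3 chains CD3D, CD3E and CD3G, CD247, CD2, CD5, CD6 and CD28) summed to 307 to 1103 CPM in obese and 256 to 295 CPM in normal dogs, without overlap, and obese dog 3 had the lowest obese sum. In the wider list of 16 T cell surface and signalling genes the fitted value was above 0 for all 16, with a median of 1.33. None passed over all genes in edgeR, and 14 were higher at an unadjusted p under 0.05, against 9.01% of all genes. LAT, the adaptor below the T cell receptor, had 51.8 ± 23.2 CPM in obese and 16.5 ± 1.47 CPM in normal dogs. CD3G had 82.5 ± 30.5 against 31.6 ± 8.68 CPM, and TRAT1, which stabilises the receptor complex, had 70.1 ± 47.8 against 19.1 ± 5.83 CPM, with adjusted p-values of 0.106 to 0.146 for these 3 genes (edgeR).

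When each factor was divided by the CD3 level of the same library (the geometric mean of CD3D, CD3E, CD3G and CD247), the groups overlapped in 9 of the 10 ratios. The CD3 level itself was 74.4, 128, 52.6, 112 and 147 CPM in obese and 44.5, 35.5 and 41.5 CPM in normal dogs. TCF7 per CD3 ran from 0.945 to 1.31 in obese and from 1.17 to 1.62 in normal dogs. BCL11B per CD3 ran from 1.02 to 2.82 against 0.679 to 1.19, with obese dogs 3 and 4 inside the normal range. IKZF3 per CD3 was lower in every obese dog, at 0.540 to 1.22 against 1.38 to 1.88 in normal dogs, and was the 1 ratio of the 10 without overlap. Among all genes tested, 33.3% were lower without overlap when divided by the CD3 level in this way, and 33.5% did not overlap in either direction. The CD3 level was itself higher in every obese dog, which lowers the ratio of any gene that does not differ. The factors already had higher means in the obese dogs, so 1 in 10 beside this share is no separate result. ETS1 per CD3 was 6.94 to 10.9 against 10.02 to 17.2, where obese dog 1 alone reached into the normal range. These ratios are a description, with no test.

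**Figure D3:**
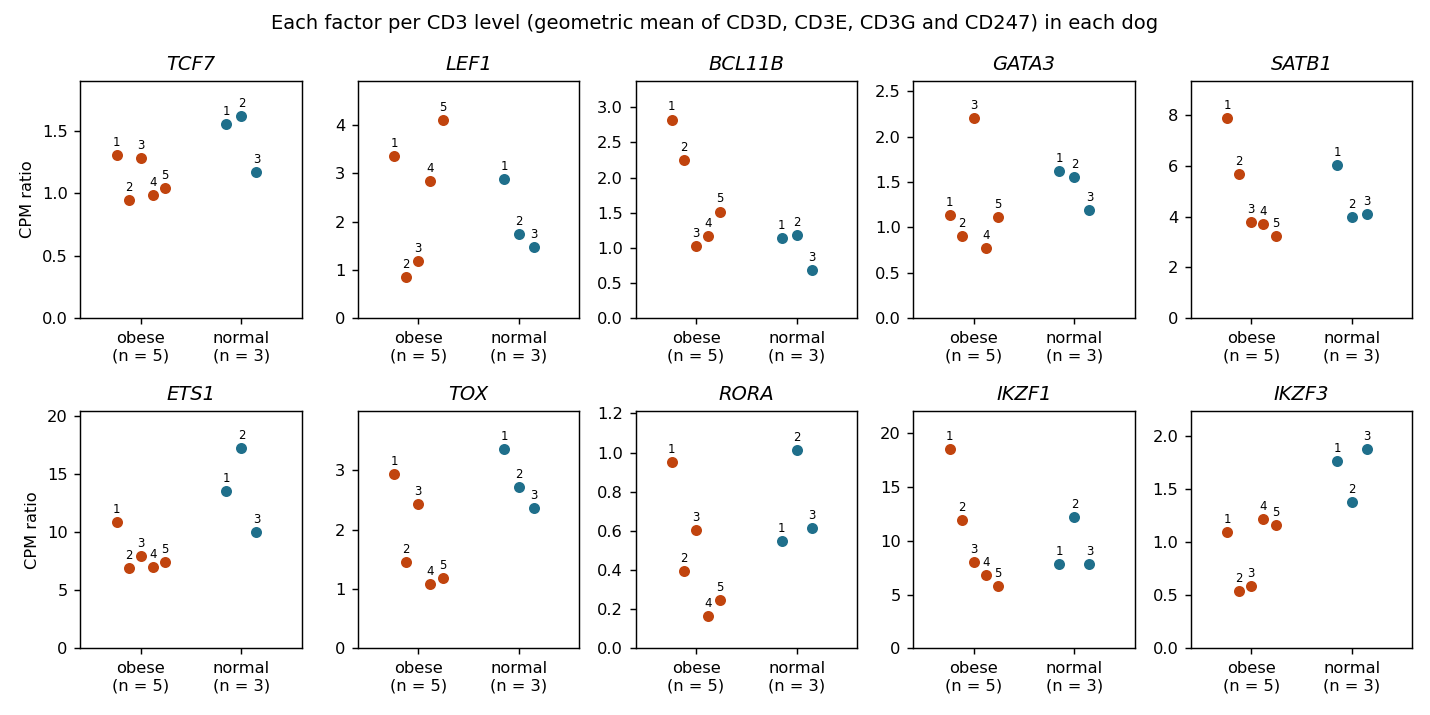
CPM of each factor divided by the CD3 level of the same library (vertical axis, linear from 0) in the 5 obese and 3 normal dogs, each dog a numbered point. IKZF3 per CD3 is lower in all obese dogs (0.540 to 1.22) than in all normal dogs (1.38 to 1.88), and the other 9 ratios overlap. On this scale, whose divisor is higher in every obese dog, 33.3% of all genes are lower without overlap.

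Markers of other blood cells were measured in the same libraries, and their part in the differences of the factors was not tested. The 9 monocyte markers tested had no member past the threshold, with 6 above 0 and 3 below it (median log2 fold change 0.22). They summed to 746 to 1401 CPM in obese and 1439 to 2630 CPM in normal dogs, a gap that VCAN carried, with 201 to 851 against 920 to 2191 CPM. Without VCAN the sums were 545 to 852 against 439 to 926 CPM and overlapped. Neutrophil markers, with 0 of 11 past the threshold, summed to 6871 CPM in obese dog 3, 205 to 971 CPM in the other obese dogs and 1685 to 6776 CPM in normal dogs. Erythroid markers (0 of 6) reached 1171 CPM in obese dog 3, with 16.8 to 55.4 CPM in the other obese and 15.9 to 18.1 CPM in normal dogs. Obese dog 3 therefore combined the lowest obese level of 7 factors with the highest neutrophil and erythroid sums of the 8 dogs.

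Platelet markers (0 of 5) summed to 60.5 to 1184 CPM in obese and 7.75 to 29.8 CPM in normal dogs, with the highest sums in obese dogs 1 and 2, where IKZF1 and SATB1 were also highest; GP1BB of that list had 0 counts in every library. B cell markers (0 of 10) summed to 56.7 to 383 CPM against 72.4 to 131 CPM, with the highest sums in obese dogs 4 and 5. The same 2 dogs had the highest IKZF3 and LEF1 and the highest BCL11A, a B cell and dendritic cell paralog of BCL11B. Markers of NK and cytotoxic cells (0 of 10) summed to 92.3 to 316 CPM against 86.1 to 158 CPM, with groups that overlapped. Their highest sums were also in obese dogs 4 and 5, at 316 and 306 CPM. Plasma cell markers summed to 72.0 to 155 CPM against 126 to 822 CPM, and 1 of 6, TNFRSF17, fell over all genes tested (adjusted p = 0.0228, edgeR).

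Proliferation markers (0 of 6 past the threshold) all had a value below 0, with a median log2 fold change of −1.92. At an unadjusted p under 0.05, 5 of the 6 were lower, against 1388 of the 20632 genes tested. They summed to 41.7 to 68.2 CPM in obese dogs other than number 3, 196 CPM in obese dog 3 and 168 to 291 CPM in normal dogs. MKI67 carried the sum in obese dog 3, with 144 CPM there against 89.7 to 147 CPM in normal dogs. In TOP2A obese dog 3 had 40.4 CPM against 53.9 to 96.3 CPM in normal dogs. It was also below every normal dog in CCNB2, CDK1 and TYMS, so it lay with the normal dogs in the sum but not in these genes. Of the 5 basophil and mast cell markers listed, 3 were tested and 0 passed, and each of these 3 overlapped between the groups. The sum over all 5, with the untested CPA3 and GATA2, was 12.3 to 35.2 CPM against 7.34 to 12.1 CPM, without overlap. That gap depended on CPA3 in obese dog 1, with 117 counts beside at most 9 in any normal dog. MS4A2, KIT and HDC, the tested genes, had 4.08, 1.81 and 0 CPM in obese dog 1. Dendritic cell markers (0 of 6) overlapped as a sum, at 118 to 299 against 133 to 236 CPM. Their genes were mixed, with 4 above 0 and 2 below it. IRF8 and FCER1A were higher in each obese dog than in any normal dog, 2 of 6, against 5.75% of all genes tested. IRF8 had 97.5 ± 45.3 against 26.9 ± 15.1 CPM, and FCER1A had 6.11 ± 2.80 against 1.43 ± 0.575 CPM (adjusted p = 0.136 and 0.147, edgeR). TCF4 and CD1C had lower means in the obese dogs, with log2 fold changes of −0.79 and −1.92 (adjusted p = 0.303 and 0.422, edgeR).

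**Figure D4:**
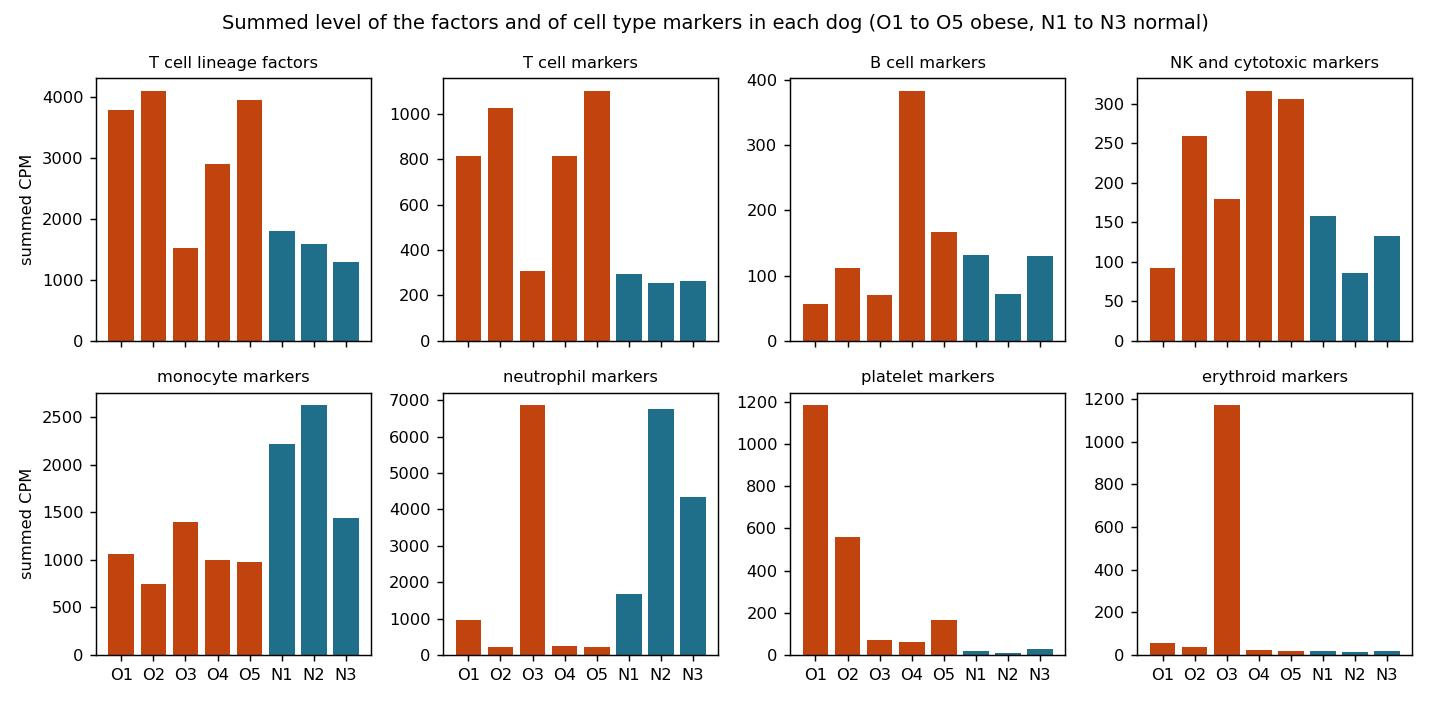
Summed CPM (vertical axes, linear from 0, a scale of its own for each panel) of the 10 factors and of markers of 7 blood cell types in each library, with obese dogs as O1 to O5 and normal dogs as N1 to N3. T cell markers and the factors are low in O3, where the neutrophil (6871 CPM) and erythroid (1171 CPM) sums are the highest of the 8 dogs.

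Paralogs of the factors, which share their DNA-binding domains, did not share their direction. Of 18 paralogs tested 7 were above 0 and 11 below it (median log2 fold change −0.13), and none passed in edgeR. At an unadjusted p under 0.05, 1 was higher and 3 lower, against 1858 higher and 1388 lower of the 20632 genes tested. ETS2, a relative of ETS1 found in myeloid cells, had 92.8, 70.8, 282, 80.9 and 93.7 CPM in obese and 341, 705 and 259 CPM in normal dogs (log2 fold change −1.81, SE 0.494, adjusted p = 0.147, edgeR). Among the obese dogs only obese dog 3 reached the normal range, as it did for ETS1. RORB, a nuclear receptor related to RORA, had 2.57 ± 0.884 against 5.75 ± 1.45 CPM, and TOX3 had 0.891 ± 0.283 against 2.13 ± 1.23 CPM. GATA1, the factor of red cell and platelet precursors, had 4.65, 4.96, 13.0, 3.85 and 1.17 CPM in obese and 0.141, 1.55 and 0 CPM in normal dogs, with its highest value in obese dog 3. TCF7L2, FLI1, IKZF2, IKZF5 and TOX4 had log2 fold changes between −0.01 and 0.05.

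**Figure D5:**
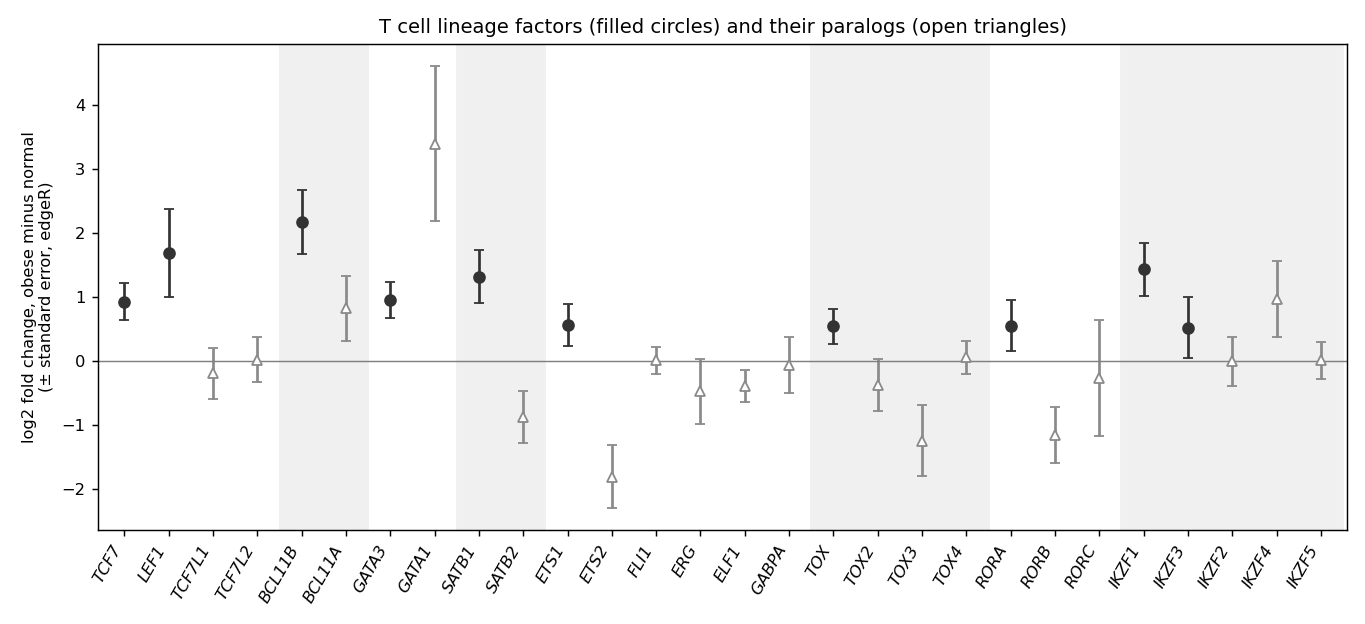
Log2 fold change, obese minus normal, ± standard error (edgeR, all 8 dogs) of the 10 factors (filled circles) and of 18 paralogs in the same families (open triangles), with each family in its own band. The circles all lie above 0, and the paralogs lie on both sides, from ETS2 at −1.81 to GATA1 at 3.39.

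Other transcription regulators of T cells were mixed as well. Of 29 tested, 20 were above 0 and 9 below it (median log2 fold change 0.49), and none passed in edgeR. At an unadjusted p under 0.05, 9 were higher and 3 lower, against 1858 higher and 1388 lower of the 20632 genes tested. NFATC2, which carries the calcium signal of the T cell receptor to the nucleus, had 239, 279.7, 113, 183 and 205 CPM in obese and 82.4, 56.1 and 66.4 CPM in normal dogs. Its groups did not overlap, also with obese dog 3, and its adjusted p was 0.0768 (edgeR). RUNX3, a factor of CD8 and NK cells, had 225 ± 134 against 70.7 ± 12.4 CPM (adjusted p = 0.155, edgeR). In the opposite direction IRF4, which acts in activated lymphocytes and plasma cells, had 60.8 ± 20.6 against 167 ± 44.4 CPM, and PRDM1, the driver of terminal differentiation in plasma and effector T cells, had 26.3 ± 16.8 against 83.2 ± 23.1 CPM (adjusted p = 0.103 and 0.13, edgeR). Both had groups without overlap, as 1064 of the 20632 genes tested did in that direction. RUNX1, a partner of the early T cell factors, had 930.1 ± 104 against 779.99 ± 182 CPM (log2 fold change 0.25).

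Genes of naive and memory T cell homing included 0 of 8 tested past the threshold, 7 with a value above 0, and a median of 1.31. IL7R, the receptor for the survival cytokine interleukin 7, had 409, 267, 123, 263 and 323 CPM in obese and 87.5, 92.6 and 46.2 CPM in normal dogs (adjusted p = 0.0932, edgeR). CCR7, which guides naive T cells into lymph nodes, had 66.2 ± 18.2 against 27.3 ± 12.03 CPM, and neither gene overlapped between the groups. ACTN1 had 95.6 ± 37.0 against 31.3 ± 15.4 CPM, and CXCR6 had 15.8 ± 11.1 against 6.23 ± 2.64 CPM.

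For the 3 factors with the smallest p, the genes with the most similar pattern over the 8 dogs were found by the root mean square difference of centred log2(CPM + 0.5) among 9999 genes with a characterised name and at least 5 CPM on average. BCL11B was closest to ANKH, with a difference of 0.21, and then to the T cell surface proteins CD6 and CD5 (0.32 and 0.36). IKZF1 was closest to ITPKB, a kinase of inositol phosphates (0.13), followed by SH3RF1 and PRKX (both 0.22). GATA3 was closest to FREM1, ASB13 and LZIC (0.13, 0.15 and 0.18), which had 4.43 to 21.6 CPM. Among the 10 factors themselves the closest pair was TCF7 and ETS1 (0.23), followed by TCF7 and GATA3 (0.31) and SATB1 and IKZF1 (0.33).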

How the data were processed

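RNA of peripheral blood mononuclear cells from 8 dogs was extracted with Trizol and made into Lexogen QuantSeq libraries, per the labels' protocols. The authors deposited 1 table of raw, whole-number counts per gene symbol for each dog; Bowtie2 and bedtools are named in the submitters' processing notes, while build, annotation and strand setting are not stated there or in the labels. Rows beyond the first of a symbol (411) were kept apart, with the plain symbol on the row of highest mean.

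The counts were tested in R 4.3.3 with edgeR 4.0.16 (filterByExpr, TMM, robust glmQLFit and glmQLFTest) across all genes, with Benjamini-Hochberg adjustment at 0.05; the step was tested on simulated data. CPM use TMM-scaled library sizes. Standard errors are the absolute log2 fold change over the square root of F. DESeq2 1.42.0 and limma 3.58.1 were alternatives, among 15 in all. Labels name separate dogs; no 2 libraries agreed within sampling noise. Overlaps of genes were looked up in the RefSeq table of UU_Cfam_GSD_1.0, which has no entry matched to RORA, and no coordinates are given.

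The members and gene lists were chosen with earlier results of these data known. Beside the members, the 4 genes of smallest p in each list and the 3 genes most alike to each of 3 members were named by rule, except 1 that is not reported here; RUNX1, BCL11A, VCAN, IRF8, FCER1A, FOXP3, ID3, TNFRSF17, TCF7L2, FLI1, IKZF2, IKZF5 and TOX4 were chosen after their values were seen.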

Additional observations from a re-analysis of the deposited data

How the results depend on the processing

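The median log2 fold change of the 10 factors stayed between 0.73 and 1.10 in all 15 alternatives. Upper-quartile scaling lowered the median of all genes by 0.12, and relative to that median the factors were at 0.84 both there and with TMM. The count of factors past the threshold, 0 of 10 in edgeR, was 3 with the DESeq2 Wald test and 7 with limma-voom, and 0 to 4 when single dogs were left out. The count of all genes past the threshold was 48, and it was 1031 with DESeq2, 3942 with limma-voom, and 2 to 1684 when single dogs were left out, with the highest count without obese dog 3. Without that dog, an alternative chosen after seeing the data, 6 factors had groups without overlap in place of 2. Of 150 fold changes of single factors under the alternatives, 135 kept direction and side of the threshold and 14 passed it.

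With the replicate number as a block no gene and 0 factors passed, the median of the factors was 0.73, and IKZF3 turned to −0.25 (adjusted p = 0.922, edgeR). The labels do not pair same-numbered dogs and do not state whether any dogs were related, so the numbers were not treated as pairs. The deviations of same-numbered dogs correlated at −0.03, −0.21 and 0.01, inside the range of differently numbered dogs (−0.26 to 0.23). Each factor had at least 273 counts in each library, and the common biological coefficient of variation over all genes was 0.54.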

Other observations

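Ratios of 2 factors inside a library do not depend on how the libraries are scaled. The pairs given here were chosen after the levels were seen, and the values are a description with no test. BCL11B per ETS1 was 0.260, 0.324, 0.129, 0.166 and 0.205 in obese dogs 1 to 5 and 0.0839, 0.0689 and 0.0678 in the normal dogs. The obese dogs, number 3 included, were thus all above the normal dogs in this ratio. IKZF1 per ETS1, a further pair formed, separated the groups only narrowly. BCL11B per BCL11A, GATA3 per RORA, BCL11B per GATA3 and ETS1 per ETS2 overlapped between the groups. IKZF1 per IKZF3 separated the obese dogs from each other, with 16.9, 22.2 and 13.6 in dogs 1 to 3 and 5.60 and 4.97 in dogs 4 and 5, while the normal dogs had 4.44, 8.86 and 4.16. LEF1 per TCF7 ran from 0.906 to 3.94 in the obese dogs and from 1.08 to 1.86 in the normal dogs, and obese dogs 2 and 3 lay below all normal dogs and obese dogs 1, 4 and 5 above them.

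FOXP3, the factor of regulatory T cells, had 9, 16, 16, 10 and 6 counts in the obese dogs and 2, 0 and 0 counts in the normal dogs. Its fitted log2 fold change was 3.99 (SE 1.13, adjusted p = 0.155, edgeR), a value that depends on the prior count because the normal counts are at or near 0. ID3, a partner of the E proteins, had at most 4 counts in any library.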
